A study of Rattus norvegicus with 6 samples.

Results

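Protein kinase A is the enzyme through which luteinizing hormone, acting by way of cyclic AMP (cAMP), drives testosterone synthesis in Leydig cells. The 10 genes described here are parts of that route: 1 catalytic subunit, 3 regulatory subunits, 2 inhibitors, 2 phosphodiesterases and 2 transcription factors. They were found as the array probes whose RefSeq accession maps to a listed rat symbol. This gave 16 probes of 30367 and 10 genes of 15168 with a symbol. They were chosen by their place in the luteinizing hormone pathway and with the signals of these same arrays, and so the difference between exosome-treated and untreated cells, already known. The differences of these 10 genes are therefore given as a description, without p-values.

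The cells were primary Leydig cells of Sprague-Dawley rats, the testosterone-producing cells between the seminiferous tubules, grown at 34 °C and 5% CO2 in serum-containing medium (10% fetal bovine serum). Exosome cultures (3 samples) received exosomes, small membrane vesicles, that primary rat Sertoli cells had released, at 5 µg/ml for 24 h. Untreated cultures (3 samples) received no exosomes, and a mock preparation of vesicles was not analysed here. The labels do not say whether untreated cells were kept for the same time or received vehicle, so an effect of handling cannot be told apart from one of exosomes. Total RNA of each sample was read on 1 single-colour Agilent array. The labels number the replicates but give neither the animal nor the culture of each, so the spread behind each p-value is the one among these arrays and may be technical.

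In the resting kinase, regulatory subunits hold catalytic subunits inactive. Adenylyl cyclases, switched on by receptors through the G protein Gs, make cAMP, which binds the regulatory subunits and sets the catalytic ones free. The small inhibitor proteins of the PKI family block free catalytic subunits and carry them out of the nucleus. Phosphodiesterases end the signal by breaking down cAMP. In the nucleus the kinase phosphorylates CREB and its relatives, which bind the cAMP response element, a short palindrome in promoters. In Leydig cells this route raises both the delivery of cholesterol to mitochondria and the transcription of steroid enzymes.

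The 75th percentile of the processed intensity lay between 860 and 1061 on the exosome arrays and between 753 and 872 on the untreated arrays, and 67.2% to 72.2% and 72.6% to 75.6% of gene spots were well above background by the scanner software's mark. No spot was saturated. Over tested probes, pairs of arrays had an r of 0.984 to 0.994 within a group and of 0.969 to 0.983 between groups. Of 8 Leydig cell markers, Star, Cyp11a1, Hsd3b1 and Insl3 were well above background on all 6 arrays, whereas the luteinizing hormone receptor gene Lhcgr and the steroidogenic factor Nr5a1 were so on 0 arrays. Cyp11a1, the enzyme that starts steroid synthesis from cholesterol, was lower on exosome arrays without overlap (−0.86 ± 0.12 on the log2 scale, limma adjusted p = 0.0098), and the other 4 tested Leydig markers did not pass. Sums of marker signals, in percent of the array's 75th percentile, are carried by their brightest genes and are given with the tested members that passed. Of all genes tested 14.6% passed as higher and 29.2% as lower, shares that moved with the scaling of the arrays, as described below. Nothing is therefore read from the counts of markers. The Leydig sum was 7438 to 8813 on exosome arrays and 7564 to 8484 on untreated arrays, mostly Hsd3b1 and Star. For 12 macrophage markers, all detected, the sums overlapped (3590 to 4254 on exosome arrays against 4125 to 4348 on untreated arrays), yet 5 were lower (Cx3cr1, Cd74, C1qa, C1qc and Adgre1) and 0 higher. The lowest of these sums, that of exosome 3, includes a Cd68 reading of 9.13. Cd68 read 888 and 1017 on exosome 1 and 2 and 909 to 1104 on untreated arrays. The sum of 9 Sertoli cell markers (3029 to 3604 against 3740 to 4319, Amh and Dmrt1 on 0 arrays) was lower with Clu (−1.02), while Wt1 was higher (0.49). That of 6 peritubular myoid markers was lower (2386 to 3071 against 3742 to 4136), with Tagln and Des lower and 0 higher. For 4 endothelial markers (107 to 142 against 60.9 to 80.7, Tek on 0 arrays) Pecam1 and Kdr were higher and Cdh5 was lower. The sums of 3 lymphocyte markers (18.8 to 23.2 against 29.3 to 35.4, Cd3e on 0 arrays) and 5 germ cell markers (12.1 to 12.8 against 13.6 to 15.5, Ddx4 and Prm1 on 0 arrays) were lower, with Cd3d, Cd8a and Prm2 passing the test. The part of these cell types in the differences below was not tested, and fewer cells of a type cannot be told apart from less RNA per cell.

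Signals below are percentages of the 75th percentile of the same array, so 100 stands for a spot as bright as that percentile. Differences are log2 values, exosome minus untreated, ± SE from a fit over all tested probes with n = 3 per group. Tested probes were those with 3 or more of the 6 arrays well above background, and a gene is represented by its brightest tested probe. Of the 10 genes 9 were tested, and 1, Pkia, passed that filter through the untreated arrays alone, so it had to differ. Representing probes of 3 genes (Pkib, Prkaca and Prkar2b) were called higher and those of 3 genes (Pkia, Pde4b and Creb1) lower at an adjusted p below 0.05. Of all 10981 genes tested, 14.6% were called higher and 29.2% lower, 43.8% in either direction, and nothing is read from the members' counts. The members were chosen with the difference known, so a call kept or lost in a rerun is a description and not support. Groups were free of overlap in 5 of the 9 genes, against 62.0% of all genes.

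**Figure D1:**
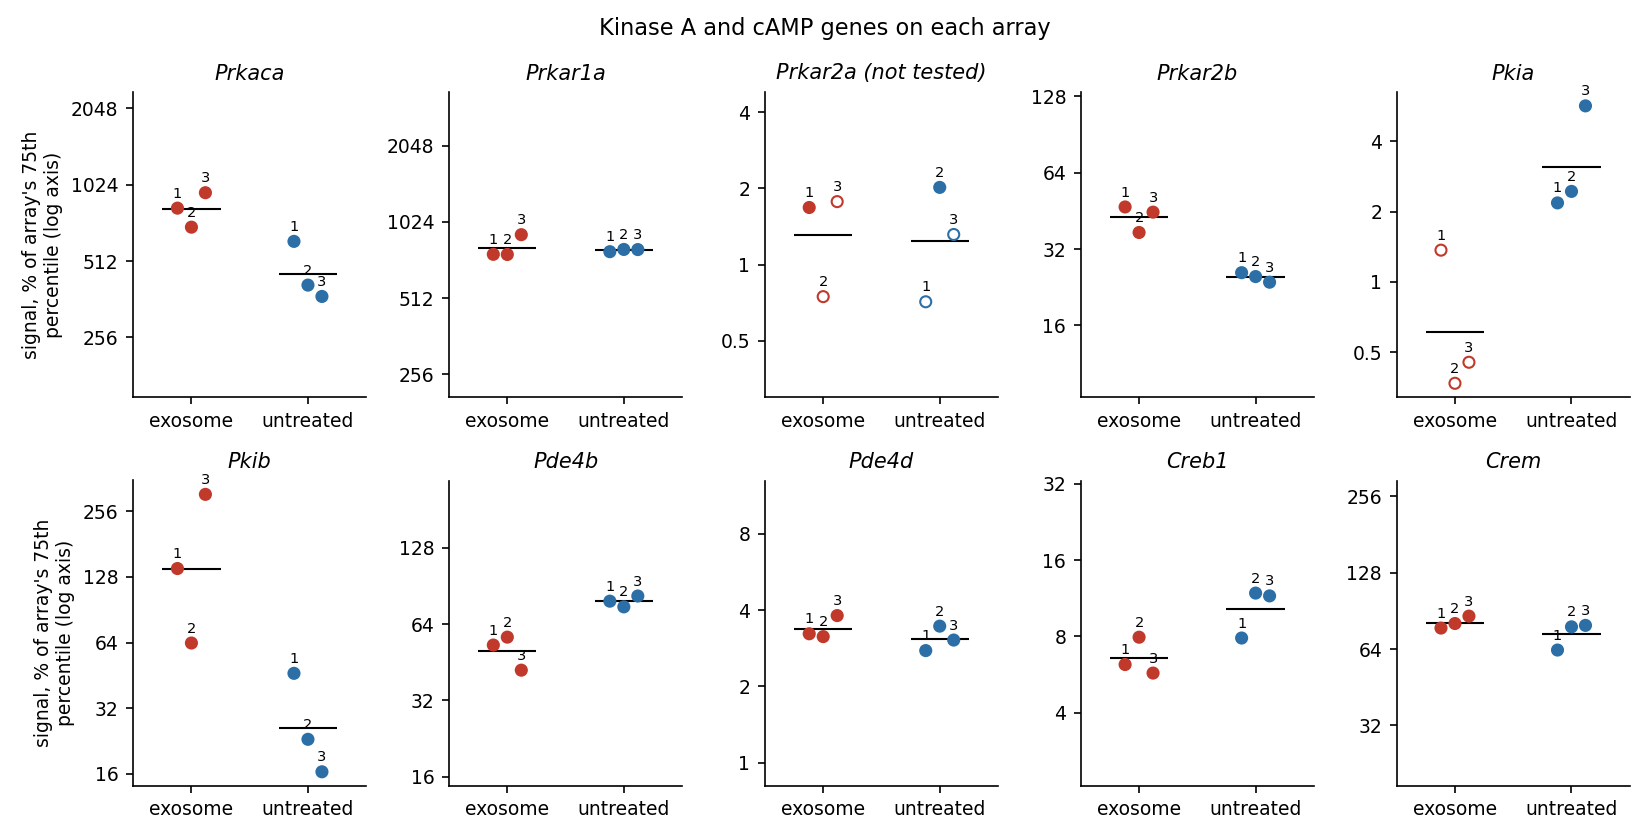
Signal of each gene's representing probe on every array, as a percentage of that array's 75th percentile on a log axis, with exosome arrays in red and untreated arrays in blue. Numbers give the replicate, bars the geometric mean of 3 arrays, and open points arrays on which the probe was not well above background. Pkib spans 63.7 to 306 on exosome arrays and 16.4 to 46.3 on untreated arrays, and Pkia is not well above background on any of the 3 exosome arrays.

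The catalytic subunit gene Prkaca, whose product phosphorylates the targets of the pathway, was higher in exosome-treated cells. Its bright probe read 828, 696 and 952 on exosome arrays 1 to 3, against 612, 411 and 371 on untreated arrays 1 to 3. All exosome arrays lay above all untreated ones, and untreated 1 came nearest to the exosome range. The difference was 0.85 ± 0.22, or 1.80-fold. The gene's dim probe read 3.10, 10.2 and 3.33 on exosome arrays and 3.02, 2.72 and 3.20 on untreated arrays. Here exosome 2 alone stood apart and the groups overlapped, with a difference of 0.67 ± 0.45 that was not called. Prkaca was no longer called without exosome 1 (0.84), exosome 3 (0.74), untreated 2 (0.78) or untreated 3 (0.71), nor without the filter on dim probes, and the sign was positive under each alternative run.

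Among the regulatory subunits the genes differed from one another. Prkar2b encodes the type II beta subunit, which anchoring proteins tether to membranes and the cytoskeleton. It was spotted 10 times on each array and read 46.9, 37.2 and 44.7 on exosome arrays, against 25.8, 24.9 and 23.7 on untreated arrays. The groups were well separated, since the lowest exosome array stood 11.4 points above the highest untreated one. The difference was 0.79 ± 0.13, or 1.72-fold, and lay between 0.62 and 1.20 under the 16 alternatives run. As a description only, Prkar2b was the 1 gene of the 10 that was called under all 16. Prkar1a, the type I alpha subunit that is the most widespread regulatory subunit in mammalian tissues, read 762, 761 and 911 on exosome arrays and 781, 797 and 796 on untreated arrays. Its groups overlapped, with exosome 3 above and the other exosome arrays below the untreated ones, and the difference was 0.03 ± 0.12. Under median centring alone Prkar1a was called higher, at 0.44, and without exosome 3 its difference was −0.05. Prkar2a, the type II alpha subunit, was at the detection limit: 1.68, 0.748 and 1.77 on exosome arrays and 0.714, 2.02 and 1.32 on untreated arrays, well above background on 1 array of each group. It was not tested.

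The inhibitor genes moved apart. Pkib, the beta form of the protein kinase inhibitor, was higher in exosome-treated cells and read 139.8, 63.7 and 306 on exosome arrays, against 46.3, 23.1 and 16.4 on untreated arrays. The groups did not overlap, although exosome 2 and untreated 1 lay only 1.38-fold apart. The difference was 2.43 ± 0.62, or 5.38-fold, and its spread was wide in both groups. The SD of the log2 signal was 1.13 among exosome arrays and 0.76 among untreated arrays, and 98.2% and 96.9% of tested genes had a smaller one. Pkib was not called without exosome 1 (2.43), exosome 3 (1.86), untreated 2 (2.34) or untreated 3 (2.097). It was called under all 5 other scalings or background corrections, at 2.13 to 2.84. Pkia, the alpha form, was well above background on all 3 untreated arrays, at 2.18, 2.44 and 5.68, and on 0 exosome arrays, where its probe read 1.37, 0.367 and 0.452. Signal that dim gives only a bound, which holds for the scaling it was computed with. Under 75th percentile scaling Pkia was at least 2.22-fold lower in exosome-treated cells. The ceiling on each exosome array was the higher of its own reading and the dimmest value well above background there. The fitted difference of Pkia, −2.35 ± 0.58, was −0.57 under the normexp background correction, a smaller change than that bound. Normexp was run with an offset of 50 added to each intensity, which shrinks log2 differences of dim probes. Pkia was not called without exosome 2 (−1.99), exosome 3 (−2.14), untreated 2 (−2.53) or untreated 3 (−1.92). Each of these genes had 1 probe, so no second probe could check either value. Pkig, the gamma form and the remaining family member, was not on the member list. Its probe read 3417, 3192 and 4193 on exosome arrays and 3052, 3009 and 3022 on untreated arrays, a change of 0.24 ± 0.14 that did not pass the test (limma with Benjamini-Hochberg, adjusted p = 0.192).

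The pattern of Pkib over the 6 arrays ran from exosome 3 through exosome 1 and 2 down to untreated 1, 2 and 3. Prkaca followed the same order on all 6 arrays (r = 0.971 between their log2 signals, n = 6 arrays), a description that includes the difference between the groups. Among the 9536 other genes well above background on all arrays, 970 had an r of 0.95 or above with Pkib, and Prkaca stood at place 501. So high an r was common in these data, and how many genes shared the exact order was not counted. The 5 genes most like Pkib were Kiaa1191 (r = 0.999), Thap3 (0.999), Plp2 (0.999), Rims3 (0.998) and Atmin (0.997). Rims3, a protein of the synaptic vesicle release site, read 265, 161 and 374 on exosome arrays and 126, 88.0 and 71.3 on untreated arrays, a difference of 1.44. Those of the other 4 lay between 0.36 and 0.76. All values of an array share its labelling and scaling.

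Pde4b and Pde4d encode phosphodiesterases of the PDE4 family, which are specific for cAMP. Pde4b read 52.9, 56.9 and 42.1 on exosome arrays, against 78.9, 74.9 and 82.7 on untreated arrays. Every exosome array lay below every untreated one, and the untreated arrays were close together. The difference was −0.65 ± 0.15, which makes the untreated signal 1.57-fold the exosome signal. It stayed negative under all 16 alternatives and was not called under median centring (−0.23) or without exosome 1 (−0.69), untreated 2 (−0.68) or untreated 3 (−0.61). Pde4d was dim: its tested probe read 3.22, 3.14 and 3.80 on exosome arrays and 2.77, 3.46 and 3.04 on untreated arrays, with overlapping groups and a difference of 0.13 ± 0.14. Quantile normalization, the authors' table and median centring called it higher (0.64, 0.63 and 0.55), whereas under normexp its difference was −0.06, so its direction depended on the processing. A second Pde4d probe was well above background on 0 arrays.

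**Figure D2:**
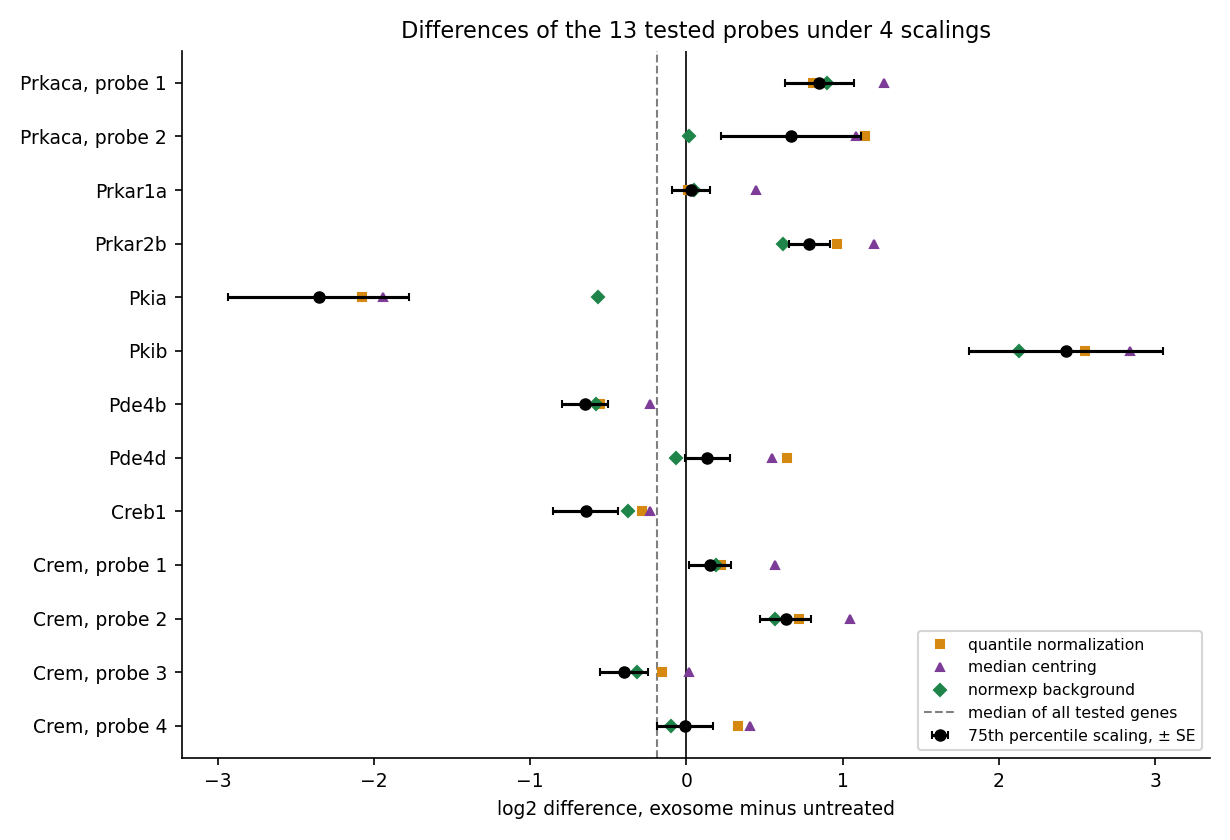
Log2 difference, exosome minus untreated, of the 13 tested probes. Black points with bars give the value ± SE under 75th percentile scaling and coloured marks the value under other scalings, with the dashed line at the median of all tested genes (−0.19). Pkib and Prkar2b lie right of 0 and Pkia left of 0 under all 4 scalings shown, while the 4 tested Crem probes spread from −0.40 to 0.63.

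The differences of all tested genes were not centred on 0, and their median moved with the scaling. The median difference of all tested genes was −0.19 under 75th percentile scaling, 0.01 under quantile normalization and 0.22 under median centring. Relative to the median of −0.19, Prkar1a and Pde4d stood at 0.22 and 0.32, and Creb1 and Pde4b at −0.46 in both cases. The median itself differed with brightness: it was −0.55 for genes with a mean signal below 10, −0.23 between 10 and 100, and 0.14 at 100 or above. Of 3536 genes whose mean signal was below 10, 3.59% were called higher and 38.6% lower, while of 3589 genes at 100 or above 24.5% were higher and 15.5% lower. Under quantile normalization the shares among the dim genes were 11.4% and 12.3%. Pkia, Pde4d and Creb1 are in the dim class, Pde4b, Prkar2b, Pkib and Crem lie between 10 and 100, and Prkaca and Prkar1a are in the bright class.

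Creb1, the founding cAMP response element binding protein, read 6.20, 7.94 and 5.73 on exosome arrays and 7.88, 11.9 and 11.6 on untreated arrays. Exosome 2 and untreated 1 overlapped narrowly, and the other arrays were separate. The difference was −0.65 ± 0.21. It was called under only 5 of the 16 alternatives, and quantile normalization (−0.29), the authors' table (−0.29) and median centring (−0.23) were among those that did not call it. Crem, a relative of CREB, yields both activators and repressors. Its short repressor ICER is made from an internal promoter that cAMP induces. Crem was measured by 5 probes, and they disagreed. The brightest, which represents the gene, read 77.4, 80.7 and 86.3 on exosome arrays and 63.4, 78.3 and 79.3 on untreated arrays, an overlap with a difference of 0.15 ± 0.13. A nearly equally bright probe for the same RefSeq transcript read 84.0, 68.7 and 101 on exosome arrays, against 54.1, 52.0 and 55.2 on untreated arrays. Its groups did not overlap, and its difference of 0.63 ± 0.16 was called.

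The other Crem probes did not move with that one. The probe of middling brightness read 17.6, 22.05 and 17.6 on exosome arrays and 22.08, 24.9 and 28.5 on untreated arrays, so that the groups barely missed overlapping, with a difference of −0.40 ± 0.16 that was not called, was called under normexp (−0.32) and came to 0.01 under median centring. The fourth read 9.61, 9.36 and 8.59 on exosome arrays and 7.35, 9.44 and 11.3 on untreated arrays, and its difference was −0.01 ± 0.18, a direction that turned with the scaling (0.33 under quantile normalization). The last was well above background on 0 arrays. Since 4 of these 5 probes carry the same accession, the files do not tell which Crem transcript each one reads. A single value for Crem would depend on the probe chosen.

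The palindrome that CREB and CREM bind is TGACGTCA, which reads the same on both strands. RefSeq promoter windows of rat assembly GRCr8, 250 bases before to 50 bases after a start, were available for 8 of the 10 genes, 16 windows in all. Of these 2 held the palindrome, both of Crem, against 1.83% of the 33469 windows of all genes. The shorter core TGACG, which is contained in the palindrome, was searched on both strands and occurred in 7 of the 16 windows and in 21.2% of all windows. The 150 bases before the starts of the Crem windows are shown, since Crem alone of the 8 genes searched has the palindrome there, followed by those of Pkib, the inhibitor gene higher in exosome-treated cells, in whose window neither motif was found. Capitals mark the palindrome, and the second Crem window holds a further copy at position 40 from the start, past the bases shown.
Crem, chr17:58984647-58984796, plus strand: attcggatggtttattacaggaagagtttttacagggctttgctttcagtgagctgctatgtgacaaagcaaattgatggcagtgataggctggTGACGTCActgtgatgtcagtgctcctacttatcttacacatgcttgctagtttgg
Crem, chr17:58985340-58985489, plus strand: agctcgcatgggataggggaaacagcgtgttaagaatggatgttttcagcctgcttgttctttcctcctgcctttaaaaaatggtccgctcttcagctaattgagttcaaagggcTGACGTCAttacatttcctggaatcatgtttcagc
Pkib, chr20:37513182-37513331, plus strand: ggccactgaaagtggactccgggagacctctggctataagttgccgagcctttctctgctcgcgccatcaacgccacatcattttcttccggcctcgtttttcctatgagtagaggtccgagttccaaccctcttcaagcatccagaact

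Among the other genes of the cAMP pathway the palindrome occurred in windows of 8, 6 of them tested, and their changes went in both directions. The sites of 4 of the tested genes, chosen after their values were seen, are printed with 10 bases on each side. They are read 5′ to 3′ along the gene's strand, in assembly GRCr8.
Btg2, chr13:48087874-48087901, minus strand: ttcccaataaTGACGTCAgtgagcgatg
Dusp1, chr10:17184719-17184746, plus strand: gcagggcgggTGACGTCAccacccggtc
Areg, chr14:17265715-17265742, minus strand: aggagaggcgTGACGTCAcgggcggtgg
Ier2, chr19:40399297-40399324, plus strand: ggcgtttcagTGACGTCActcttactct
With this element Btg2, an antiproliferative gene, rose by 0.66 (SE 0.16, limma adjusted p = 0.019), and Dusp1, a phosphatase that switches off MAP kinases, fell by 0.69 (SE 0.15, limma adjusted p = 0.016). Both Btg2 and Dusp1 missed the test without untreated 2 and also without untreated 3. Areg, a ligand of the EGF receptor, and Ier2, an early response gene, had differences of −0.06 each and did not pass. Nor did Gnao1 (−0.54) and Vgf (0.42), the other tested pathway genes with the palindrome, whose sites are not printed. Over the whole array, 270 tested genes had a window with the palindrome. Of these 21.1% rose and 21.9% fell, against 14.7% and 29.4% of 8753 tested genes whose windows lacked it. Their probes were brighter (median signal 63.0 against 32.3), and what part brightness has in this was not tested.

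The rest of the pathway was described from 9 lists of 139 genes, of which 126 had a probe and 77 were tested. Of the 77, 11 rose and 26 fell (14.3% and 33.8%), close to the 14.6% and 29.2% of all genes, and their median difference was −0.30 against −0.19. Of the 26, Adcy3, Pde8a and Crtc1 passed the filter through the untreated arrays alone, so they had to differ, and they are described without p-values. Under quantile normalization 13 rose and 11 fell, with the same counts in the authors' table. The falls were mostly of dim probes: 17 of the 33 genes with a signal below 10 fell and 1 rose, whereas of the 20 at 100 or above 7 rose and 4 fell. Without untreated 2 the counts were 1 and 7, without untreated 3 they were 2 and 11, and without exosome 1 they were 4 and 13. The counts of all genes fell in the same runs. They were 134 higher and 820 lower, 214 and 1002, and 377 and 1406, against 1598 and 3209 with all arrays.

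**Figure D3:**
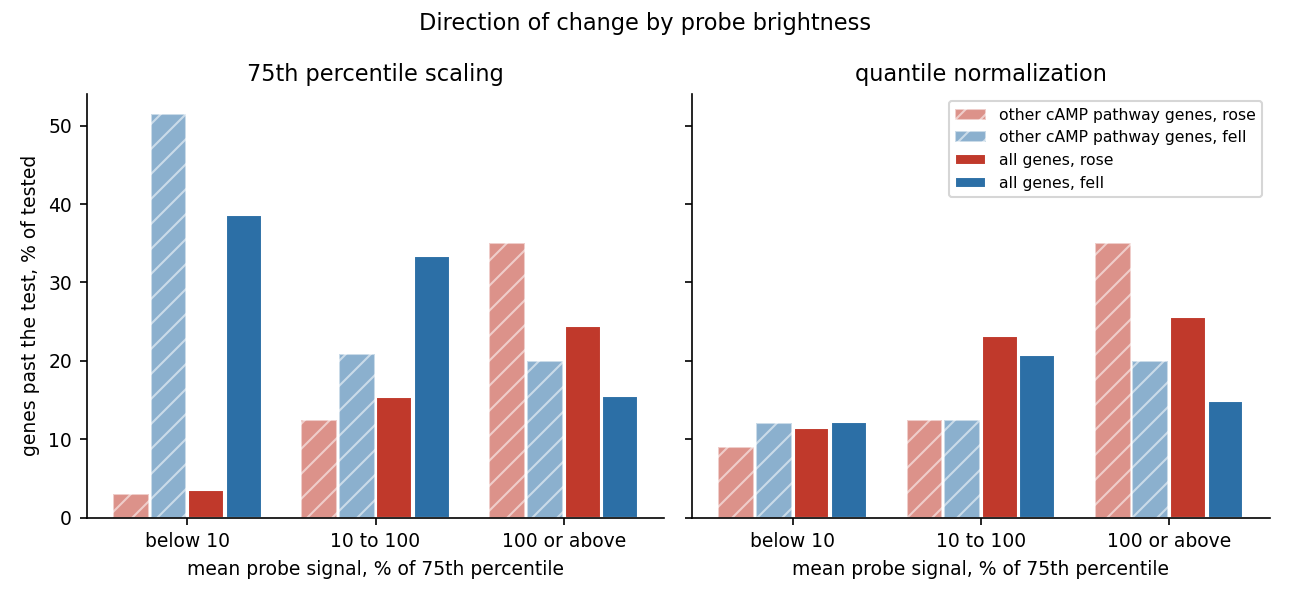
Percentage of tested genes that rose (red) or fell (blue) at an adjusted p below 0.05, by mean probe signal as a percentage of the array's 75th percentile, for the other genes of the cAMP pathway (hatched) and for all genes (plain), under 75th percentile scaling on the left and quantile normalization on the right. Among dim probes of all genes, 38.6% fell and 3.59% rose on the left, while on the right the shares were nearly equal (12.3% and 11.4%).

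Of 19 tested receptors that signal through Gs, 1 rose and 10 fell. Over all genes 14.6% rose and 29.2% fell, and 38.6% of those with a signal below 10 fell. The receptor counts were 3 and 1 under median centring and 1 and 3 under quantile normalization. Without untreated 2 there were 0 and 1, and all genes then had 134 and 820. Crhr2, a receptor of urocortins, read 6.20, 6.72 and 7.51 on exosome arrays, against 13.1, 11.8 and 11.2 on untreated arrays, and fell by 0.82 (SE 0.13, limma adjusted p = 0.010). Its change missed the test under quantile normalization (−0.47), in the authors' table (−0.47) and under median centring (−0.41). Pth1r, the parathyroid hormone receptor, fell by 0.97 (SE 0.17), and Ptgir, the prostacyclin receptor, by 0.68 (SE 0.12). Adora2a, an adenosine receptor, read 112, 152 and 113 on exosome arrays, against 203, 195 and 186 on untreated arrays, and fell by 0.64 (SE 0.15). Without untreated 2 the changes of Pth1r, Ptgir and Adora2a were −0.91, −0.69 and −0.64 and missed the test, and under median centring those of Ptgir and Adora2a were −0.27 and −0.23 and missed it too. Adora2a also missed it without untreated 3 (−0.67), exosome 1 (−0.57) and exosome 3 (−0.57).

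Of 9 genes of G proteins, 2 rose and 1 fell, against 14.6% and 29.2% of all genes. Gnal, a stimulatory alpha subunit best known from olfactory neurons, read 54.5, 57.7 and 51.0 on exosome arrays, against 154, 111 and 131 on untreated arrays. It fell by 1.27 (SE 0.15, limma adjusted p = 0.0098) and stayed past the test under all 16 alternatives. Gnai3, an inhibitory alpha subunit, read 821, 663 and 819 on exosome arrays, against 472, 466 and 452 on untreated arrays, and rose by 0.72 (SE 0.13), missing the test only without untreated 2 (0.73). Ric8a, which helps to fold inhibitory alpha subunits, rose by 0.44 (SE 0.14), a call lost without each array except exosome 2 (0.33 to 0.48). Gnas, the usual stimulatory subunit, had a difference of −0.14 ± 0.14 and did not pass.

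Only 4 of the 9 adenylyl cyclases with a probe could be tested, and 2 fell, against 29.2% of all genes. Of the 2, Adcy3 passed the filter through the untreated arrays alone and had to differ, so nothing is read from this count. Adcy7 read 3.87, 4.38 and 3.97 on exosome arrays, against 8.16, 8.15 and 7.66 on untreated arrays, and fell by 0.97 (SE 0.11, limma adjusted p = 0.0098). It passed under all 16 alternatives, but with a smaller change under normexp (−0.50), quantile normalization (−0.55) and median centring (−0.56), and its other tested probe had a difference of −0.18 and did not pass. Adcy3 was well above background on 0 exosome arrays and 3 untreated arrays and was at least 1.92-fold lower under 75th percentile scaling. Its fitted difference of −1.12 was −0.41 under normexp and −0.55 under quantile normalization, both smaller changes than that bound. The 3 other kinase A subunit and inhibitor genes, Prkacb, Prkar1b and Pkig, had differences of −0.54 ± 0.53, −0.31 ± 0.12 and 0.24 ± 0.14. None passed, while of all genes 43.8% passed in either direction. In limma Prkar1b alone had an unadjusted p below 0.05.

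Of 8 tested anchoring proteins, which bring the kinase to its targets, 3 rose and 2 fell, against 14.6% and 29.2% of all genes. Akap8, a nuclear anchor, read 400, 305 and 415 on exosome arrays, against 232, 206 and 182 on untreated arrays, and rose by 0.85 (SE 0.17, limma adjusted p = 0.014). Akap10 rose by 0.66 (SE 0.13) and Akap13 by 0.51 (SE 0.12). The second probe of Akap10 went the other way past the test (−0.54), and the mean over both probes was 0.06. Akap12, a scaffold also known as gravin, fell by 0.90 (SE 0.24) and Akap7 by 0.75 (SE 0.24), and both missed the test under quantile normalization (−0.61 and −0.33). Without untreated 2 none of Akap8, Akap10, Akap13, Akap12 and Akap7 passed (0.85, 0.65, 0.51, −0.84 and −0.91), nor without untreated 3 (0.76, 0.62, 0.54, −0.78 and −0.86).

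Beside Pde4b and Pde4d, 8 cAMP phosphodiesterase genes were tested, and 2 rose and 2 fell, against 14.6% and 29.2% of all genes. Of the falls, that of Pde8a was bound to occur, since it passed the filter through the untreated arrays alone. Nothing is read from the count of falls. Pde7a read 35.8, 31.1 and 40.4 on exosome arrays, against 21.4, 19.3 and 17.5 on untreated arrays, and rose by 0.88 (SE 0.15, limma adjusted p = 0.011) under all alternatives except the mean over its probes (0.23). Its second probe had a difference of −0.43 and did not pass. Pde3b, which insulin signalling activates in fat and liver cells, rose by 0.65 (SE 0.13), and missed the test without untreated 2 (0.67), untreated 3 (0.61) and exosome 1 (0.56). Pde8a is a phosphodiesterase with high affinity for cAMP that restrains steroid synthesis in mouse Leydig cells. It was well above background on 0 exosome arrays and all 3 untreated arrays, at least 1.56-fold lower under 75th percentile scaling. Its fitted difference of −1.57 was −0.42 under normexp, a smaller change than that bound. Pde10a fell by 0.45 (SE 0.12), and quantile normalization left −0.05 of this.

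Of 5 further cAMP effectors tested in limma 0 passed at the adjusted threshold, against 43.8% of all genes. In limma 2 of these 5 had an unadjusted p below 0.05. These were Rapgef3, the cAMP-activated exchange factor also called Epac1 (−0.45), and the cyclic nucleotide-gated channel gene Hcn3 (−0.90), both named after their values were seen. Of 3 tested partners of CREB 1 rose and 1 was lower, against 14.6% and 29.2% of all genes. Atf1, a close relative of CREB, rose, and Crtc1, a coactivator that cAMP brings into the nucleus, was lower. Crtc1 passed the filter through the untreated arrays alone and had to differ, so nothing is read from these counts. Atf1 read 444, 391 and 509 on exosome arrays, against 280, 297 and 297 on untreated arrays, a change of 0.61 ± 0.13 (limma adjusted p = 0.016). A dim second probe of Atf1 fell past the test (−0.60), and without untreated 2 the brighter probe missed it (0.63), as it did without untreated 3 (0.63) and exosome 1 (0.61). Crtc1 was well above background on 0 exosome and 3 untreated arrays and was at least 2.14-fold lower under 75th percentile scaling. Its fitted difference of −1.71 was −0.50 under normexp, a smaller change than that bound.

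**Figure D4:**
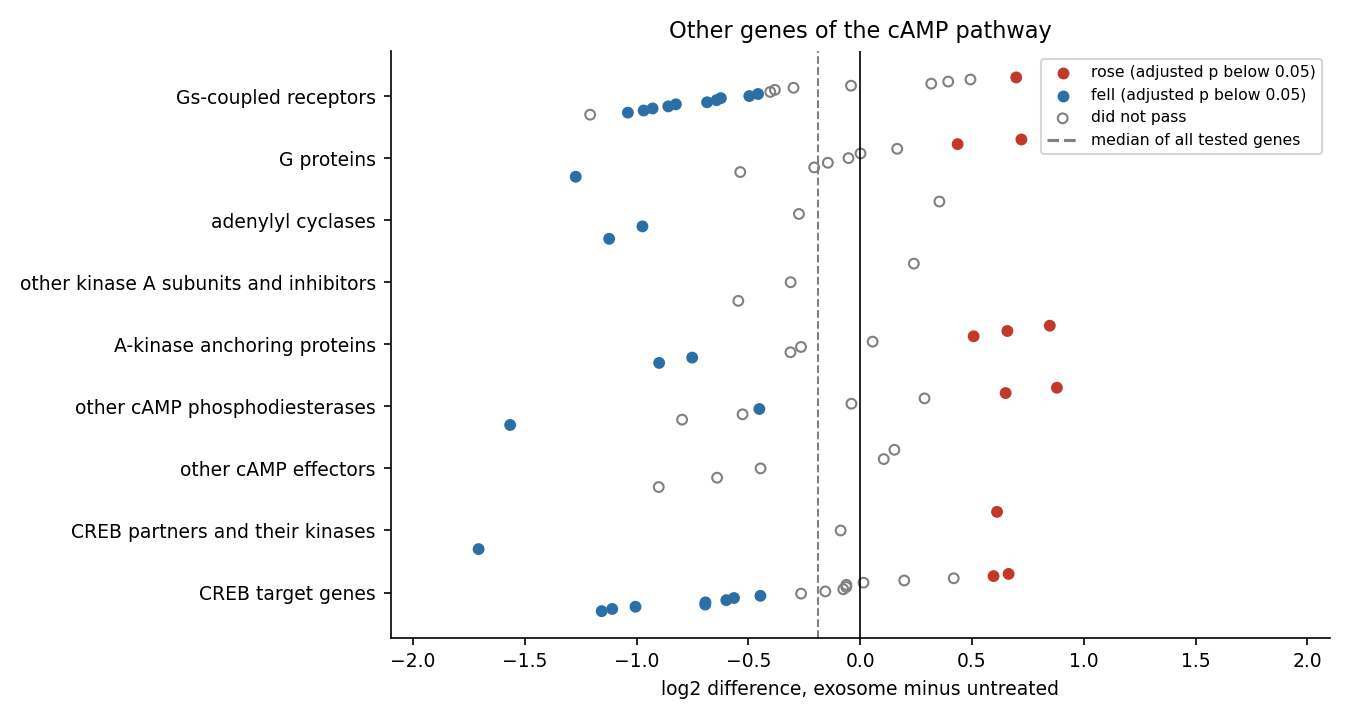
Log2 difference, exosome minus untreated, of the 77 other tested genes of the cAMP pathway, by list. Filled points passed the test (red rose, blue fell), open points did not, genes with only a bound stand at their fitted value, and the dashed line marks the median of all tested genes (−0.19). Gs-coupled receptors have 10 falls and 1 rise and CREB target genes 8 and 2, against 3209 falls and 1598 rises among all genes. Under median centring the receptors have 1 fall and 3 rises and the targets 3 and 3.

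Of 18 tested target genes of CREB, 2 rose and 8 fell, against 14.6% and 29.2% of all genes. Quantile normalization gave 3 and 5. Nr4a1, an orphan nuclear receptor that luteinizing hormone induces in Leydig cells, read 1416, 1281 and 1431 on exosome arrays, against 927, 907 and 892 on untreated arrays, and rose by 0.60 (SE 0.11, limma adjusted p = 0.012). Penk, which encodes proenkephalin, read 18.9, 21.8 and 18.2 on exosome arrays, against 37.4, 41.2 and 49.1 on untreated arrays, and fell by 1.11 (SE 0.15, limma adjusted p = 0.0098). Nfil3, a transcriptional repressor, fell by 1.16 (SE 0.17), and the clock gene Per1 changed by −1.005 (SE 0.19). Fos, the immediate early factor, had a difference of −0.08 ± 0.10, and Star, the cholesterol carrier, one of −0.26 ± 0.13, and neither passed. Penk and Nfil3 stayed past the test under all alternatives, whereas without untreated 2 Nr4a1 and Per1 missed it (0.60 and −1.02), and without untreated 3 Nr4a1 did (0.58). Without untreated 2 the list had 0 rises and 2 falls, and all genes had 134 and 820.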

How the data were processed

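RNA of 3 exosome-treated and 3 untreated samples was read on 6 one-colour arrays. Per the file headers, the authors' array files hold fluorescence intensity values of 44254 spots from Agilent Feature Extraction 11.0.1.1, also named in the submitters' processing notes. The processed intensity has had background removed array by array, with no scaling across arrays. Other marks per spot, such as well above background, are in the same deposited files. The authors' deposited table of all samples holds log2 values. All its columns have a median of 5.68, and each correlated with its own array at 0.996 or more. How the authors scaled it is not given in the sources used here, and it served as an alternative.

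Spots marked as outliers were left out, spots of a probe were averaged on the log2 scale and the 75th percentile over gene spots was subtracted. A probe counted as well above background where at least 50% of its spots did. Symbols came from a RefSeq table of assembly GRCr8, for 18005 probes. Limma 3.58.1 in R 4.3.3 fitted the 2 groups over 20435 tested probes (prior degrees of freedom 2.60), with Benjamini-Hochberg adjustment over all of them, after being tested on simulated data. Python 3.11.15 made the tables. The array files hold median rather than mean spot intensities, which the normexp alternative used. The 3 untreated arrays share a scan time, exosome 1 and 2 share another, and exosome 3 has its own. Scan time was tried as a random block, and since no scan holds both groups, scan and group cannot be told apart. The number of arrays limits the precision. All arrays were scanned on 1 day, so scan date gave no block of its own.

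Members, lists and tests were chosen with earlier results of these data known. Named genes are all members, in each list all genes past the test where there were 5 or fewer and otherwise the 4 of smallest p, and the 5 genes most like Pkib; others were chosen after their values were seen. Replicate numbers are shared by the groups, but same-numbered arrays did not deviate together (r of −0.087 to −0.024).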

Additional observations from a re-analysis of the deposited data

How the results depend on the processing

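The 16 alternatives changed 1 choice at a time, except for normexp and for the authors' values, which come from their whole processing. Normexp also used median spot intensities and added an offset of 50 to each. An added offset shrinks log2 differences of dim probes, and what part it has in their smaller changes under normexp was not tested. Scaling over probes in place of spots was chosen after seeing the data. Of the 10 genes 3 were called higher and 3 lower. Median centring gave 6 and 1, and leaving out 1 array gave 1 to 3 and 0 to 3. Of the other pathway genes 11 rose and 26 fell. Median centring gave 21 and 9, quantile normalization 11 falls, the authors' values also 11, and the mean over a gene's probes 7 rises. Leaving out 1 array gave 1 to 12 rises and 7 to 28 falls, with the lowest counts without untreated 2. In that run all genes numbered 134 higher and 820 lower. Without exosome 3 the counts were 1 and 1 of the 10 genes, and without untreated 3 they were 1 and 0. With the replicate block 3 and 2 of the 10 genes were called and 9 and 20 of the other pathway genes, and all genes numbered 768 higher and 2410 lower, against 1598 and 3209 without it. The replicate numbers did not pair the arrays. No called difference of the 10 genes and no named pathway gene changed sign under any alternative run. Of 24 named pathway genes, 16 missed the test without untreated 2, and 5 (Gnal, Adcy7, Crtc1, Penk and Nfil3) passed in each alternative that could test them. Adcy3, Pde8a and Crtc1 passed the filter through the untreated arrays alone and so had to differ. Nothing is therefore read from the passes of Crtc1. The scaling moved the share of falls among all calls (66.8%), which was 44.4% under quantile normalization and 19.1% under median centring. Signal over background limits Pkia, Prkar2a, Adcy3, Pde8a and Crtc1.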
